A study of Homo sapiens with 15 samples.

Results

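Reads that carried a T>C conversion were set against all other reads of the same gene in sorted G1 cells, to describe which messages of G1 were largely labelled after a short pulse and which were hardly labelled. The members are the 3 G1 libraries, with 3 No_alkylation libraries as background, out of 15 libraries in the study, which also holds 3 each of Early_S, Late_S and G2. All are U2OS cells, an established human osteosarcoma line, and no group carries a genotype or drug of its own. Asynchronously growing cells were given 4-thiouridine and EdU together for 45 minutes, fixed with glyoxal and methanol, and sorted by EdU signal and DNA content, so the controls of G1 here are the other gates of the same culture protocol. Polyadenylated RNA ends were sequenced from 500 ng of RNA after alkylation, which was skipped in No_alkylation. Which gate or mixture of cells went into No_alkylation is not given in the labels. Separate cultures are not stated for the 3 libraries of a group, so p-values measure the spread between these libraries, which may be technical. Although the word synchronised stands in the title, the growth and sorting steps name no synchronising treatment. Genes were taken by the name in the files: 8556 of 19531 names had at least 100 reads in each of the 6 libraries and at most 5% T>C reads in No_alkylation, and these were ranked by labelled share. Another 154 names reached the read minimum and were left out for their background.

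4-thiouridine is a uridine analogue that enters RNA as it is made, and alkylation makes it read as C where the genome has T. A read with such a conversion is therefore taken as RNA made during the pulse, although 1.01% of No_alkylation reads carried one too. A read without one can be older RNA or new RNA in which no analogue was read. A message that is made and destroyed quickly is replaced within a short pulse and has a high labelled share; a message that lasts for many hours has a low one. Messages for transcription factors, signalling feedback inhibitors and other regulators are known for short lives, often set by AU-rich or other elements near their ends, and messages for ribosomal proteins and metabolic enzymes for long ones. A gene whose transcription has just risen also has a high share, and the share alone does not tell this from fast decay. Below, "fast" and "slow" name the highest and lowest 5% of the ranking and nothing more.

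The G1 libraries held 17786388, 18104015 and 17290130 reads in regions near transcript ends, of which 4037464, 3887707 and 3943102 were T>C reads. T>C reads made up 22.3% ± 0.740 (SD, n = 3) of G1 reads and 1.01% ± 0.0179 of No_alkylation reads. The 2 groups did not overlap, and an exact two-sided permutation test gave p = 0.1, the smallest that 3 libraries against 3 allow. Per covered T position, 2.52% ± 0.120 were converted in G1 and 0.0447% in No_alkylation. G1 had the highest share of the 4 gates, beside 18.4% in Early_S, 10.05% in Late_S and 10.1% in G2. Against the 9 libraries of the other gates the share was 9.46 percentage points higher (exact permutation p = 0.004545, the smallest that 3 against 9 allow). Every G1 library was above every other alkylated library in this measure. The conversion rate was 0.882 percentage points higher (exact permutation p = 0.009091), and without any 1 Late_S or G2 library p was 0.0667 to 0.0727. In this rate the gates overlapped, G1 library 2 at 2.38% lying below Early_S library 1 at 2.44%. The mean of Early_S was 2.35%. The osteoblast-lineage markers listed for this line summed to 2478 to 2635 CPM in G1, 8 of 9 being in the files. Nearly all of this sum came from COL1A1 (1747 to 1922 CPM) and SPARC (663 to 708 CPM), while SP7 had 1 read over the 3 G1 libraries, COL1A2 32, SPP1 39 and IBSP 0. Markers of G2 and mitosis summed to 636 to 656 CPM in G1 and 856 to 1994 in the other gates, and blood cell markers to at most 0.636 CPM in G1. S phase markers were closer, at 1135 to 1200 CPM in G1 and 1238 to 1570 CPM in the other gates. Of these, RRM2 overlapped, with 419 to 441 CPM in G1 and 399 to 511 CPM in the other gates. CLSPN overlapped too, at 4.59 to 9.37 and 3.16 to 9.02 CPM, while TYMS did not, at 696 to 753 and 816 to 1056 CPM. Of the G2 and mitosis markers, CDC20 overlapped, with 243 to 280.5 CPM in G1 and 211.8 to 583 CPM in the other gates. So did PLK1, at 50.3 to 68.6 and 66.5 to 270.5 CPM, and the rest of that list did not. Epithelial markers summed to 32.2 to 47.5 CPM in G1 and 18.98 to 35.7 CPM in the other gates, and their part in the results was not tested.

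The labelled share differed between genes on the 2 strands of the genome, and this touches every result below. Over ranked genes, the median share in G1 was 22.9% for the 4445 genes on the + strand and 32.6% for the 4111 on the - strand. In the 3 G1 libraries the + medians were 24.4%, 18.9% and 25.3%, and the - medians 32.6%, 31.7% and 32.7%. The - strand was the higher in 12 of 12 alkylated libraries, by a factor of 1.29 to 1.69 in this median. The gap was widest among highly labelled genes: 365 genes on the - strand and 19 on the + strand had shares over 75%, and the highest 5% of each strand began at 82.1% and 55.6%. Among lowly labelled genes it was narrow, the lowest 5% of each strand ending at 8.30% and 6.81%. Covered T positions per read had medians of 19.2 on the + strand and 19.4 on the - strand. Converted T positions divided by T>C reads gave 1.99 on the + strand and 2.13 on the - strand in G1, and 0.968 and 0.756 in No_alkylation, where the order of the strands was the opposite. Values under 1 show that this ratio is not the number of conversions held by each T>C read. In No_alkylation, T>C reads made up 0.675% of + reads and 1.37% of - reads, so the 2 strands differed there too. What sets the strands apart was not tested. The strand, or the medians of both strands, are therefore given beside many of the genes and lists below.

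**Figure D1:**
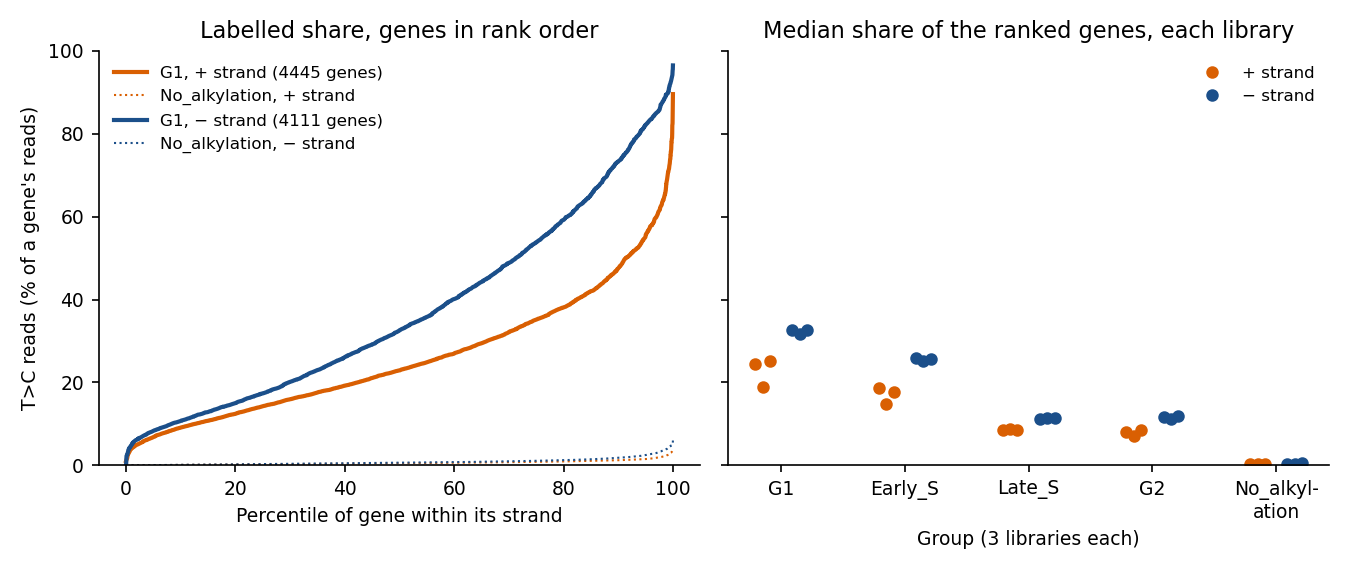
Left, mean labelled share of each ranked gene in G1 (solid) and in No_alkylation (dotted), in rank order within its strand; right, the median share of the ranked genes on each strand in each of the 15 libraries. The - strand curve lies above the + curve over nearly all ranks but not at the lowest ones, where TRAPPC6A and DPP7 are on the - strand, with medians of 32.6% and 22.9%, and its median is the higher in all 12 alkylated libraries.

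Across all 8556 ranked genes the labelled share ran from 0.189% to 96.5%, with a median of 26.5% and quartiles of 15.5% and 42.7%. More than 50% of reads were labelled for 1565 genes and more than 90% for 35, all of them on the - strand. Under 10% were labelled for 904 genes and under 5% for 136. The 428 fast genes had shares of 73.5% or more (median 82.05%) and the 428 slow genes 7.46% or less (median 5.89%). Just inside and outside these limits lay NEDD9 at 73.5% ± 6.22 and RNF139 at 73.5% ± 4.58, and RALY at 7.46% ± 0.651 and TMSB10 at 7.48% ± 0.531, so members at the edges did not differ beyond their spread from those left out. Fast genes held 2.25% of G1 reads and 8.29% of its T>C reads, and slow genes 11.1% and 3.09%. Of the fast genes 404 lay on the - strand and 24 on the + strand; of the slow genes 152 and 276. Ranking each gene within its own strand kept 230 of 428 fast genes (53.7%) and 374 of 428 slow genes (87.4%).

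Among genes with under 20% multimapped reads the highest shares included those of TOB1, DUSP1, FBXO30, FBXO5, PLAG1, HOXA13, BBC3, DNAAF2, PABPC4L, ZNF850, LRP5L, CHIC2, HOXB2 and ZNF217, all on the - strand, at 92.9% to 96.5%. They include regulators of the cell cycle, of development and of cell death. TOB1, a member of a growth-inhibiting family that recruits the deadenylase, had shares of 97.5%, 96.9% and 94.97% in G1 libraries 1, 2 and 3, from a mean of 208 reads. FBXO5, an inhibitor of the anaphase-promoting complex, had 93.7%, 94.3% and 96.7%, with 1.98% in No_alkylation. BBC3, the cell death inducer PUMA, had 93.03%, 92.01% and 96.8%. All 3 libraries were above 90% for each of these 3 genes, which were chosen by their mean over the same libraries. The homeobox genes HOXA13 and HOXB2 had 94.1% ± 7.38 and 93.1% ± 1.98, HOXA13 spreading from 85.6% to 98.9% over 173 reads on average. On the + strand, under the same limit on multimapped reads and in a list made after the values were seen, the highest shares were those of ID1, CYR61, SOX9, MAFF, NOG, AEN, SESN2, PIM3, IER5, JUNB, HSPA1A, PIP5K1A, PLK3, CKS2 and RBM15, at 75.7% to 89.5%. Among them, AEN and PLK3 are induced through p53, and NOG is a secreted antagonist of bone morphogenetic proteins.

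Feedback inhibitors of MAP kinase signalling had among the highest shares of any list. Their median was 74.9% against 26.5% for all ranked genes, with 70.6% over 3 members on the + strand and 84.1% over 7 on the - strand. In the test of T>C against other reads within G1, which sets each gene's ratio against the bulk of genes (edgeR quasi-likelihood, Benjamini-Hochberg over 12327 genes), 14 of 14 tested members were called higher and 0 lower. Over all genes tested, 28.4% were called higher and 27.9% lower, and list counts are read against these percentages. With library size in place of TMM scaling, which moved the median gene by 0.41 on the log2 scale, 4400 genes were higher and 2435 lower in place of 3498 and 3437. The ranking and this test use the same reads, so the calls restate the shares with a measure of spread. DUSP1, a phosphatase that turns MAP kinases off (counted region chr5:172768090-172768761, hg38, - strand), had shares of 93.03%, 98.3% and 95.1%, with 1094 of 1176 reads labelled in library 1. Its No_alkylation share was 0.108%, and its log2 ratio of T>C to other reads relative to the bulk was 5.88 ± 0.309 SE (adjusted p = 1.6e-12). DUSP1 was named for its high share in these same 3 G1 libraries, so its place above the background and the median gene in each follows from that choice. DUSP2 stood at 87.5% ± 4.70, whereas DUSP7 at 64.5% ± 7.88 and SPRED1, on the + strand, at 52.95% ± 13.5 were the lowest ranked members.

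The AP-1 transcription factor subunits and ATF3 had a median of 73.1%, and 9 of 12 tested members were called higher and 0 lower. JUN on the - strand had 85.8%, 86.6% and 85.5% of a mean of 4473 reads, with 1.18% in No_alkylation and a log2 ratio of 4.00 ± 0.141 SE. JUNB on the + strand had 74.6%, 73.4% and 85.9%. FOSL1 reached 85.1% ± 2.25 and FOSL2, on the + strand, 49.8% ± 9.09; BATF3 was the lowest at 30.4% ± 1.86 and was not called. FOS had only 93.3 reads on average in G1 and fell below the read minimum, so its place in the order cannot be given. The EGR, IER, NR4A and KLF early genes had a median of 78.3%, and 15 of 18 tested members were called higher and 0 lower; the median was 66.2% over 7 members on the + strand and 84.6% over 5 on the - strand. IER3 had 89.6%, 88.5% and 88.5% and KLF10 91.4%, 86.6% and 90.02%. EGR1, a zinc finger factor of the immediate early response on the + strand, had 76.02%, 69.5% and 79.8%. EGR1 ranked 381st of all genes and 19th of its strand. IER2, at 77.98% ± 0.779, had 56.8% multimapped reads, so reads of a near-identical copy may enter its value.

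YAP target genes had the highest median of the lists, 81.6%, and 9 of 11 tested members were called higher and 1 lower. On the + strand the median of 5 members was 39.5%, on the - strand that of 6 members was 84.6%. The first place was not kept when genes were ranked within their strand. There the median percentile of the YAP list was 95.05. It was 97.66 for the EGR, IER, NR4A and KLF list, 97.29 for AP-1 and ATF3, 96.78 for MAPK feedback genes and 96.75 for p53 targets. CTGF, a secreted matrix-associated factor, had 91.7%, 90.2% and 91.0% of 7921 reads on average. CYR61, a related factor on the + strand, had 83.4%, 84.3% and 86.8%, the second highest share of that strand. AMOTL2, an angiomotin that restrains YAP, had 90.3%, 89.3% and 89.6%, whereas its relative AMOTL1 on the + strand had 29.1% ± 6.81 and was not called. The receptor tyrosine kinase AXL was the one member called lower, at 15.99% ± 1.47. Feedback genes of TGF-beta and BMP signalling had a median of 63.9%, and 12 of 15 tested members were called higher and 0 lower. ID1, an inhibitor of basic helix-loop-helix factors (counted region chr20:31605838-31606515, hg38, + strand), had 89.8%, 88.5% and 90.4% of 11800 reads on average, the highest share of any + strand gene. ID3, a related inhibitor on the - strand, had 88.5% ± 1.84. The repressors SKIL and TGIF2 were the lowest at 44.1% ± 6.58 and 35.02% ± 13.8.

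**Figure D2:**
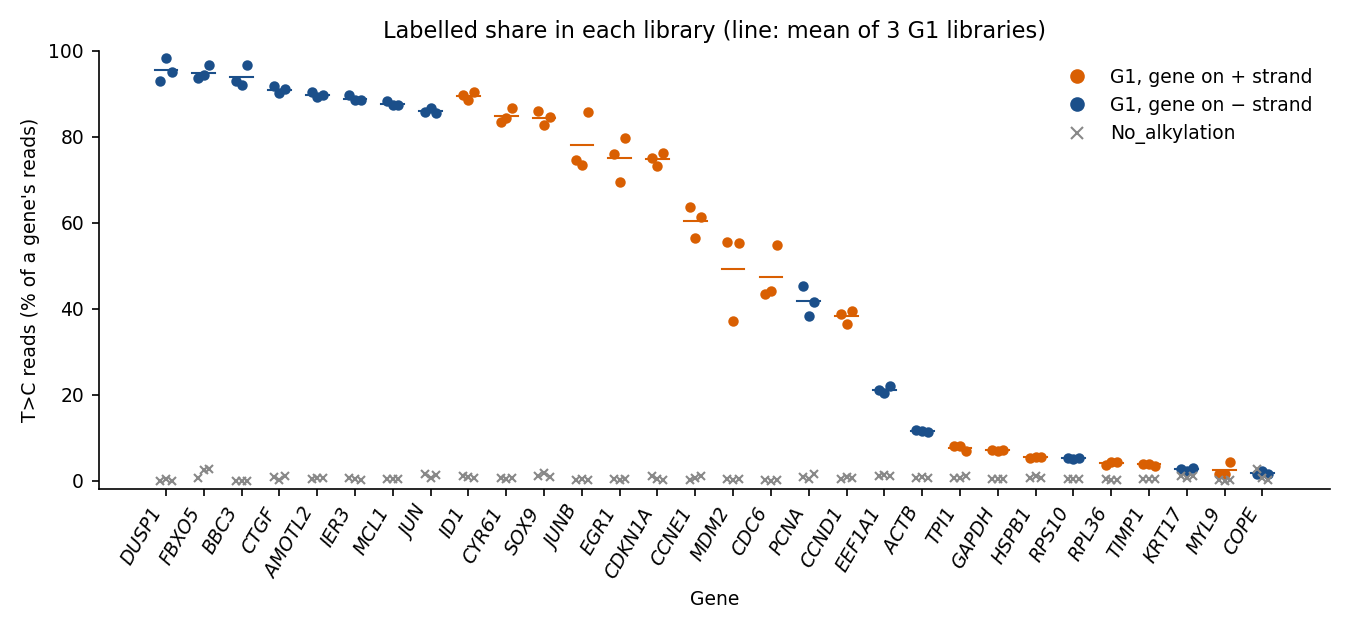
Labelled share of 30 named genes in each of the 3 G1 libraries (dots, coloured by strand; the line is their mean) and in the 3 No_alkylation libraries (crosses). The genes from DUSP1 to CDKN1A have means of 74.8% or more, those from TPI1 to COPE means of 7.70% or less, and the crosses lie near 0.

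Promoters are shown for 4 fast genes, 2 on each strand, because their windows hold letters searched for: the cyclic AMP response element TGACGTCA, which reads the same on both strands, and TATAAA, searched on the gene's strand. Each sequence is the window from 250 bases before to 50 after the start in RefSeq (GRCh38.p14), 5′ to 3′ on the gene's strand, with these letters in capitals: DUSP1 chr5:172771146-172771445 (-), CTGF chr6:131951323-131951622 (-), ID1 chr20:31605039-31605338 (+) and JUNB chr19:12791236-12791535 (+).
DUSP1: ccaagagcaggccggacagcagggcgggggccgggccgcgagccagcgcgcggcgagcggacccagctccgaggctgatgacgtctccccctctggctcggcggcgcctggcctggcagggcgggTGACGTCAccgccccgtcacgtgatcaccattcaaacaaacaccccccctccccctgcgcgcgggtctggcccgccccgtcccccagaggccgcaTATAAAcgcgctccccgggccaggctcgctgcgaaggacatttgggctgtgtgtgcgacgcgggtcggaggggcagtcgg
CTGF: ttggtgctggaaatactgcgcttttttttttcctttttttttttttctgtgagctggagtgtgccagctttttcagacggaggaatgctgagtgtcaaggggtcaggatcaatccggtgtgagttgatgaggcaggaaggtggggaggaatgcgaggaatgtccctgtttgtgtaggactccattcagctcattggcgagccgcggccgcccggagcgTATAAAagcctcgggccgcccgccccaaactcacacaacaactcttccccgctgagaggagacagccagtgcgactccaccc
ID1: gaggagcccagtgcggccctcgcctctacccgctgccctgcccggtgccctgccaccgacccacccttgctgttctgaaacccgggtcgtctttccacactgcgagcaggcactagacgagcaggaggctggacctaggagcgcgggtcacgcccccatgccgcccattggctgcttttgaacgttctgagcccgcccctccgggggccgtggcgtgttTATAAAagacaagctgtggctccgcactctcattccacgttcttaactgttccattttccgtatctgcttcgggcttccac
JUNB: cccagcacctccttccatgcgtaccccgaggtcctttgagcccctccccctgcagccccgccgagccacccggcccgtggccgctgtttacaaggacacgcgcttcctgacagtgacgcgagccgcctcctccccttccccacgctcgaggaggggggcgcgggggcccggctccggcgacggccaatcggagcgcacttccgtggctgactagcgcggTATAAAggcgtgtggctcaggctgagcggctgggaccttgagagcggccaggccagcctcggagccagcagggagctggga
In DUSP1 the response element begins 125 bases before the start and TATAAA 30 before it. TATAAA begins 32, 31 and 31 bases before the start in CTGF, ID1 and JUNB. A promoter window was matched for 337 of 428 fast genes, 337 of 428 slow genes and 6925 of 8556 ranked genes. TGACGTCA stood in 6.82% of fast, 3.56% of slow and 3.84% of all ranked windows, and TATAAA in 6.82%, 2.37% and 3.21%. With genes classed within their strand the shares were 5.39%, 3.92% and 3.84% for TGACGTCA and 7.78%, 2.41% and 3.21% for TATAAA. Of all 27305 RefSeq windows, TGACGTCA stood in 1.98% and TATAAA in 7.71%. The letters are a description of these windows, not evidence of binding.

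Targets of p53 had a median of 63.7%, and 17 of 24 tested members were called higher and 1 lower; the medians were 64.3% over 12 members on the + strand and 59.8% over 7 on the - strand. CDKN1A, the cyclin-dependent kinase inhibitor p21, had 75.1%, 73.1% and 76.3% of 12120 reads on average, with 0.597% in No_alkylation. PLK2 had 88.05% ± 2.803 and SESN2 78.9% ± 2.40. MDM2, the ubiquitin ligase that destroys p53, had 55.6%, 37.1% and 55.3%, library 2 being the low one. CCNG1 and FDXR were the lowest, at 32.4% ± 2.15 and 18.9% ± 6.03. Among the BCL2 family and inhibitors of apoptosis the median was 37.3%, and 8 of 17 tested members were called higher and 2 lower: MCL1, the short-lived survival factor, had 88.2%, 87.4% and 87.3%, while BNIP3L had 11.7% ± 2.36.

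Factors that act on RNA decay ran from 14.6% to 96.5%, and 17 of 34 tested members were called higher and 4 lower, around a median of 38.6%, with 27.6% over 10 members on the + strand and 53.4% over 20 on the - strand. Besides TOB1, ZFP36L2, which binds AU-rich elements and brings in deadenylases, had 91.5%, 91.2% and 92.2%. HNRNPD, another AU-rich element binder, had 14.6% ± 0.816 and AGO1, the core protein of microRNA silencing, 15.8% ± 4.85. ZFP36 had 62.0 reads on average and was not ranked. The ZNF zinc finger genes, mostly repressors with KRAB domains, had a median of 45.2% over 169 ranked members, and 177 of 383 tested members were called higher and 14 lower. Here the strands were far apart, with 35.4% over 98 members on the + strand and 70.9% over 71 on the - strand. F-box genes had medians of 24.7% on the + strand and 56.7% on the - strand, and 21 of 46 tested members were called higher and 8 lower. Of 16 tested clock genes 8 were called higher and 1 lower; PER1 had 61.3%, 84.8% and 60.8% and CLOCK 42.4%, 30.1% and 39.6%.

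The regulators of G1 and of entry into S phase, which act in the sorted phase itself, ran from 14.4% to 84.8%. Their median was 38.8%, and 19 of 32 tested members were called higher and 7 lower; the medians of the strands were 38.3% over 17 members on the + strand and 39.3% over 13 on the - strand. CCNE1, the cyclin that drives S phase entry, had 63.6%, 56.4% and 61.3%, and CCNE2, its relative, 83.9%, 84.3% and 86.1% from 219 reads on average. CDC25A, the phosphatase that activates its kinase partner, had 85.1%, 80.6% and 84.5%. CCND1, the growth-factor-dependent cyclin of early G1, had 38.8%, 36.5% and 39.6%. CCND1 thus lay below CCNE1 in every library, both being on the + strand. CDC6, which loads the replicative helicase, had 43.3%, 44.1% and 54.7%, and PCNA, the replication clamp, 45.4%, 38.4% and 41.6%. The helicase subunit MCM5 at 15.2% ± 0.613 and the tumour suppressor RB1 at 14.4% ± 6.48 were the lowest. MYC, a growth-promoting transcription factor on the + strand, had 72.8%, 69.2% and 77.9%, whereas MLXIP and MXD4, of the wider network around MYC and MAX, had 17.4% ± 2.77 and 21.4% ± 8.03.

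At the other end stood the machinery of protein synthesis. Of cytosolic ribosomal proteins, 0 of 78 tested members were called higher and 77 lower, with a median of 8.58% and a range from 4.17% to 18.4% over 75 ranked members. The medians of the strands, 7.92% over 45 members on the + strand and 9.26% over 30 on the - strand, were close, and with the strands fitted apart 78 of 78 were called lower. That fit called 26.8% of all genes higher and 27.7% lower. RPL36 had 3.67%, 4.46% and 4.39% and RPS10 5.26%, 5.18% and 5.29%, the latter with 62.9% multimapped reads. RPL37 was the highest, at 18.4% ± 1.68. Among translation factors 5 of 36 tested members were called higher and 28 lower (median 17.8%); EIF4A2, an RNA helicase whose introns host small nucleolar RNAs, was the highest at 67.01% ± 2.82 and EEF1D the lowest at 6.04% ± 0.787. EEF1A1, the elongation factor that brings tRNA to the ribosome, had 21.1% ± 0.823, with 99.2% multimapped reads. Of aminoacyl-tRNA synthetases 0 of 18 tested members were called higher and 17 lower, WARS having 5.25%, 6.54% and 6.62%. Ribosome biogenesis genes were not low as a list (median 29.8%; 10 of 28 tested members were called higher and 8 lower), and mitochondrial ribosomal proteins had a median of 24.3%, near that of all genes, and 15 of 71 tested members were called higher and 30 lower.

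Genes of energy metabolism mostly had low labelled shares as well. Among respiratory chain and ATP synthase genes 2 of 80 tested members were called higher and 71 lower, around a median of 11.7%, and 16 of the 77 ranked members were slow; NDUFS7 had 5.32%, 2.36% and 5.83%. Among glycolytic enzymes 2 of 18 tested members were called higher and 13 lower (median 11.7%). GAPDH (counted region chr12:6538171-6538374, hg38, + strand) had 7.101%, 6.99% and 7.21%, with 10148 of 142911 reads labelled in library 1 and 0.374% in No_alkylation. TPI1 had 8.02%, 8.098% and 6.98%. Both genes lay well above the background in every library and differed little between libraries. The exceptions were SLC2A1, the glucose transporter listed with them, at 64.96% ± 7.44 and HK2, a hexokinase with 38.3% multimapped reads, at 51.6% ± 1.42. Proteasome subunits had a median of 14.2% (1 of 34 tested members were called higher and 26 lower), and lysosomal genes 10.6% (1 of 20 tested members were called higher and 17 lower).

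Matrix and cytoskeleton genes were mostly called lower. Of matrix genes 1 of 22 tested members were called higher and 17 lower, with a median of 10.5% in all, and 5.903% over 10 members on the + strand and 14.4% over 10 on the - strand. TIMP1, an inhibitor of matrix metalloproteinases (counted region chrX:47586692-47586789, hg38), had 3.96%, 3.91% and 3.54% of 18210 reads on average. Of cytoskeleton genes 1 of 29 tested members were called higher and 25 lower (median 11.4%). ACTB, cytoplasmic actin, had 11.9%, 11.6% and 11.3%, with 78.3% multimapped reads. MYL9 had 2.48% ± 1.57, TPM2 3.87% ± 1.06, and TUBB4B, a tubulin, the highest share at 34.2% ± 1.07.

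Several lists held messages of both very high and very low labelled share. Among heat shock proteins 7 of 17 tested members were called higher and 7 lower: the inducible chaperone HSPA1A had 81.3%, 74.01% and 76.7% and its partner DNAJB1 74.9%, 77.1% and 77.6%, while HSPB1 had 5.38%, 5.501% and 5.62% and HSP90B1, of the endoplasmic reticulum, 5.93%, 7.902% and 4.74%. These genes are the 2 highest and the 2 lowest ranked members of the list, so their separation follows from that choice. Among ATF4 and unfolded protein response genes 11 of 20 tested members were called higher and 5 lower, with medians of 44.5% over 12 members on the + strand and 16.8% over 4 on the - strand. ATF4 itself, a factor of the stress response, had 53.3%, 50.99% and 53.8%, CEBPB 69.7% ± 8.097 and XBP1 73.7% ± 10.5. The biosynthetic enzymes of the list were at the bottom, with ASNS at 4.305%, 3.14% and 3.57% and PHGDH at 3.88%, 1.96% and 2.93%. Among G2/M genes 14 of 30 tested members were called higher and 6 lower: CKS2 and CCNA2 had 75.7% ± 4.05 and 67.6% ± 2.24, while PTTG1, securin, had 5.34%, 4.49% and 5.33% and KIF20A, a kinesin of cytokinesis, 9.53%, 6.32% and 7.13%. Cholesterol synthesis enzymes ran from FDPS at 8.87% ± 0.0935 to IDI1 at 62.99% ± 10.4, and 8 of 23 tested members were called higher and 9 lower.

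Remaining lists lay between. NF-kB feedback genes and cytokines had a median of 38.3%, with 37.2% over 7 members on the + strand and 77.1% over 4 on the - strand, and 5 of 14 tested members were called higher and 2 lower; NFKBIA, the inhibitor that NF-kB induces, had 81.8%, 75.05% and 77.2%. Of Notch and Wnt feedback genes only 4 were ranked, and 7 of 10 tested members were called higher and 0 lower, with JAG1 at 84.2% ± 5.52 and HES1 at 72.3% ± 5.53. Histone genes in this polyadenylated RNA had a median of 42.6% (19 of 34 tested members were called higher and 5 lower), the linker histone H1F0 having 60.03%, 57.03% and 58.8%. Histone lysine methylases and demethylases had 42.8% (15 of 29 tested members were called higher and 2 lower) and SR proteins and hnRNPs 34.4% (14 of 26 tested members were called higher and 9 lower), from SRSF4 at 73.5% ± 5.38 to HNRNPK at 11.5% ± 0.379. In the MYC partner network 4 of 11 tested members were called higher and 1 lower (median 27.9%). The list of snoRNA host genes had 1 name in the files and none that was ranked.

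**Figure D3:**
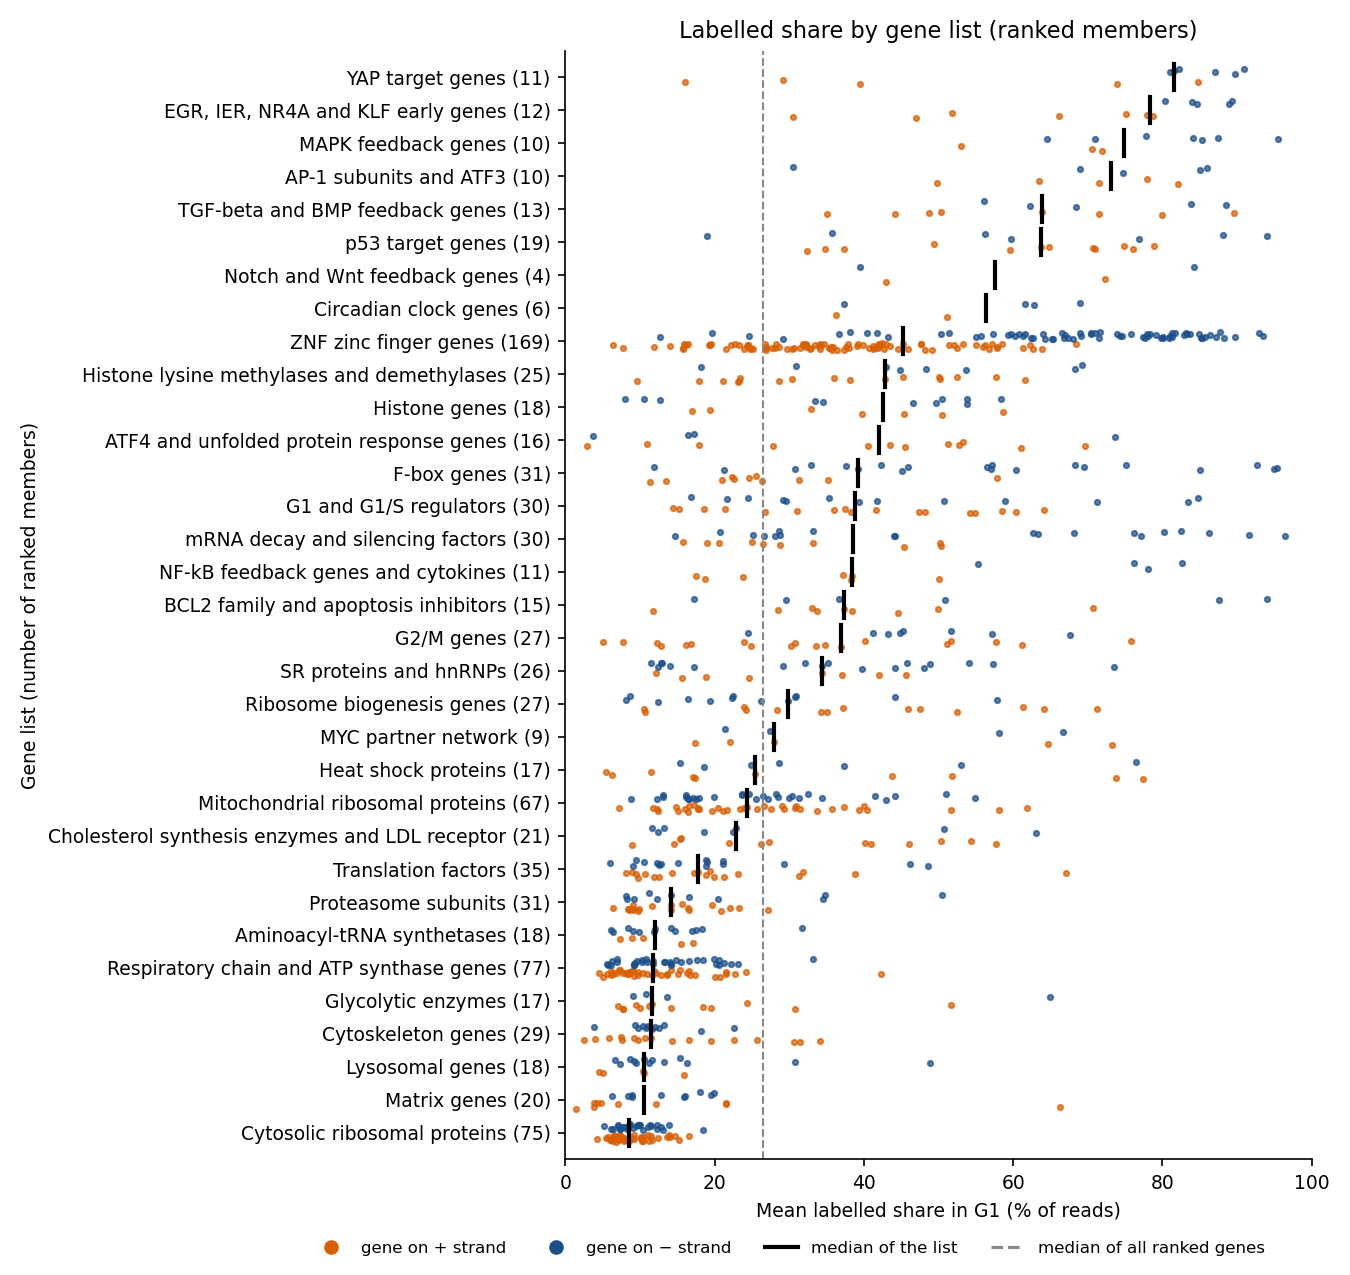
Mean labelled share in G1 of the ranked members of each gene list, coloured by strand, with the median of the list (black) and of all ranked genes (dashed, 26.5%). The YAP target list has the highest median (81.6%) and the cytosolic ribosomal protein list the lowest (8.58%).

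A stricter test asked for a T>C ratio more than 2-fold from the bulk, that is beyond 1 on the log2 scale (glmTreat). It called 1998 genes higher (16.2%) and 1649 lower (13.4%) of 12327, and all 428 fast and all 428 slow genes were among them, which their choice by share largely fixes. The lowest shares were close to the background. Above background, 11334 of 12391 genes were called (91.5%), with 428 of 428 fast genes and 384 of 422 tested slow genes among them. Of the 15 slowest genes with under 20% multimapped reads, TRAPPC6A, DPP7, PI3, LHPP, OLFML3, P2RX4, ACAP1, COL3A1, FIBCD1, FAH, SLC12A5, PACS2, DECR1, IGFBP6 and COPE, 6 had under 10 T>C reads in all and were not tested, 5 were above background and 4 were not called. TRAPPC6A had 1 T>C read among 596 in the 3 libraries, a share of 0.168% with an exact 95% binomial interval of 0.00425% to 0.931%. In library 1 it had 0 labelled reads, which allows a share of up to 1.28% (3 counts), and intervals and limits cover counting error only, since reads are not independent molecules. COL3A1, a fibrillar collagen, had 2.098%, 0.418% and 1.73% against 1.304% in No_alkylation and was not distinguishable from background (log2 0.14, adjusted p = 0.90). COPE, a coatomer subunit, had 1.46%, 2.37% and 1.65% against 1.24% and was not called (adjusted p = 0.31), and its call changed when No_alkylation library 1 was left out (adjusted p = 0.018). A slow gene with many reads was called above background: KRT17, a keratin, had 2.77%, 2.202% and 2.92% of 13560 reads on average, against 0.932% (adjusted p = 2.8e-05).

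The share of labelled reads also moves with the number of T positions that a read covers. Fast genes had a median of 21.9 covered T per read and slow genes 14.2, beside 19.3 for all. Among the 2139 genes with fewest covered T (at most 16.1 per read) the median share was 17.5%, with 15 fast and 271 slow genes, and among the 2139 with most (at least 21.9) it was 33.2%, with 209 fast and 31 slow. The conversion rate per covered T, which counts conversions against covered T, was 9.74% in the median fast gene, 0.631% in the median slow gene and 2.74% over all, and 339 of 428 fast and 333 of 428 slow genes stayed in their class when ranked by it. Across genes the 2 measures had a Spearman correlation of 0.971 over 8556 genes that share libraries and reads. By strand the median conversion rate was 2.32% on + and 3.58% on -, so the strand difference remains in it. Share and covered T per read had a Spearman correlation of 0.306, and share and gene length 0.0364 over 8319 genes with a length in RefSeq. Conversion rate and covered T per read had a Spearman correlation of 0.160. The median conversion rate was 2.16% among the 2139 genes with fewest covered T and 3.05% among the 2139 with most. The trend with covered T was thus smaller in the conversion rate but remained.

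The order of genes in G1 was largely that of the other gates, at other levels. The median share of the fast genes was 85.7%, 59.6% and 58.7% in Early_S, Late_S and G2, and that of the slow genes 5.64%, 3.09% and 3.05%; the medians of all ranked genes were 20.3%, 9.92% and 9.66%. Of the fast genes, 82.0% were in the highest 5% of Early_S, 72.0% in that of Late_S and 72.2% in that of G2. Slow genes were in the lowest 5% of these gates in 45.1%, 42.3% and 36.0% of cases. In single G1 libraries, which the ranking used, 83.2% to 86.0% of fast and 57.5% to 72.7% of slow genes lay in the same tail. DUSP1 had 98.2%, 97.2% and 97.3% in Early_S, Late_S and G2, so nearly all its reads were labelled in every gate. GAPDH had 4.13%, 3.22% and 3.74% in Early_S, Late_S and G2. EGR1, by comparison, had 71.3%, 34.7% and 27.4% in Early_S, Late_S and G2, and CCNE1 50.5%, 15.3% and 17.9% in Early_S, Late_S and G2.

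**Figure D4:**
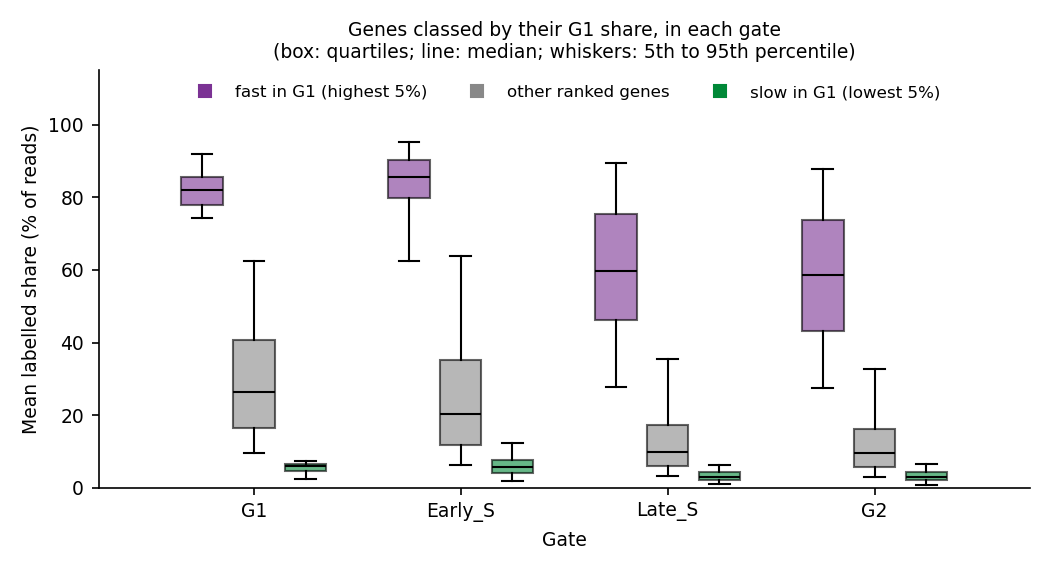
Mean labelled share per gene in the 4 gates for the genes that are fast (highest 5%), slow (lowest 5%) or neither in G1; boxes are quartiles with the median, whiskers the 5th to 95th percentile. Fast genes have medians of 82.05%, 85.7%, 59.6% and 58.7% in G1, Early_S, Late_S and G2, and slow genes stay below 6% in the median; the G1 boxes are set by the choice of genes.

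Relative to the bulk of genes, the share in G1 differed from the mean of the other gates for few genes. With each kind of read scaled over its own columns, 387 of 13619 genes were higher in G1 (2.84%) and 585 lower (4.3%; edgeR quasi-likelihood, Benjamini-Hochberg). Scaled by all reads of the library instead, so that the share itself is compared, 6369 genes were higher (46.8%) and 25 lower (0.184%) in a gate that was the most labelled as a whole, and the median gene moved by 1.18 on the log2 scale; the split between higher and lower thus depends on the scaling. Leaving out G1 library 1, 2 or 3 left 256, 215 and 254 genes higher. Of the fast genes 19 were higher and 71 lower relative to the bulk, and of the slow genes 0 and 90. Those lower include JUN and DUSP1, whose shares were already near the top in every gate: JUN had 89.04%, 87.3% and 84.1% in Early_S, Late_S and G2 beside 85.95% in G1. Scaled by all reads, neither of these genes was called. ID1 turned from lower (log2 -0.57 ± 0.0883 SE) to higher (log2 0.61 ± 0.113 SE) between the scalings.

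Of the called genes, 366 higher and 563 lower had at least 100 reads in each of the 12 alkylated libraries. Among these, 178 of 366 and 311 of 563 had no overlap between G1 and the other gates in the scaled ratio of T>C to other reads. The same count over genes that were not called was not made, so these numbers have no background share beside them. The 6 genes without overlap that had the largest change each way were as follows. SAPCD2 had 6.54%, 4.87% and 17.2% in G1 and 23.5% to 50.1% over the 9 other libraries, a log2 difference of -3.52 ± 0.339 SE with adjusted p = 8.3e-12. KIF20A, at 9.53%, 6.32% and 7.13% in G1, had 45.4%, 26.6% and 17.2% in Early_S, Late_S and G2 (log2 -3.43 ± 0.291 SE, adjusted p = 1.1e-13). TNFAIP8L1 had 10.4%, 4.42% and 12.96% against 20.6% to 33.6%. In all 3 genes every G1 library was below every other library, and the difference was called under both scalings. No overlap in the scaled ratio and a call, with each kind of read scaled apart, were conditions for choosing these genes. Neither is further support. MED26, a subunit of the Mediator complex, had 83.2%, 77.4% and 86.3% in G1 and 88.7% to 98.9% elsewhere. SOAT2, an enzyme of cholesterol esterification, had 2.18%, 6.78% and 8.59% in G1 and 7.17% to 44.7% elsewhere, so its unscaled shares overlapped; it was not called without G1 library 1 (adjusted p = 0.20). The joined name P2RY11,PPAN-P2RY11, whose reads cannot be split between its genes, had 8.64%, 18.2% and 5.73% in G1 and 10.9% to 47.1% elsewhere, again overlapping before scaling, and was not called without G1 library 3 (adjusted p = 0.074).

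Higher in G1 were PID1, ANKS6, MFSD1, MOB3B, COBLL1 and HDDC3. MOB3B, of the MOB family of kinase regulators, had 83.5%, 73.4% and 80.9% in G1 and 34.03%, 18.7% and 15.7% in Early_S, Late_S and G2 (log2 2.64 ± 0.462 SE, adjusted p = 3.3e-05). HDDC3 had 68.8%, 62.7% and 56.8% and 27.3%, 10.01% and 5.91% in Early_S, Late_S and G2. PID1, an adaptor protein, had 46.5%, 33.1% and 39.1% and 22.9%, 3.83% and 0.271% in Early_S, Late_S and G2. In each of these 3 genes the means of the other gates stood in the order Early_S, Late_S, G2. MFSD1, a lysosomal membrane protein, had 15.7%, 24.5% and 17.7% in G1 and 0.136% to 5.52% elsewhere. ANKS6 had 26.4%, 36.5% and 26.8% and 0% to 10.6%, and was not called without G1 library 2 (adjusted p = 0.11). COBLL1 had 48.1%, 54.3% and 58.8% and 0% to 23.3%, and its call (adjusted p = 0.043) was lost without any 1 of the 3 G1 libraries (adjusted p = 0.059 to 0.14), without Early_S library 2 (0.051) and with the strands fitted apart (0.051). Among genes named for other reasons, TIMP1 had 3.802% in G1 and 24.9%, 3.12% and 2.99% in Early_S, Late_S and G2, so that its Early_S libraries, at 24.5% to 25.1%, stood apart from all others (log2 -1.97 ± 0.134 SE against the mean of the other gates). PTTG1 had 5.05% in G1 and 17.9%, 9.52% and 8.86% in Early_S, Late_S and G2 (log2 -2.47 ± 0.154 SE). CCNE1 was higher in G1 (log2 0.98 ± 0.168 SE, adjusted p = 2.3e-05), and CDKN1A did not pass the test (log2 -0.00173 ± 0.104 SE, adjusted p = 1.0).

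**Figure D5:**
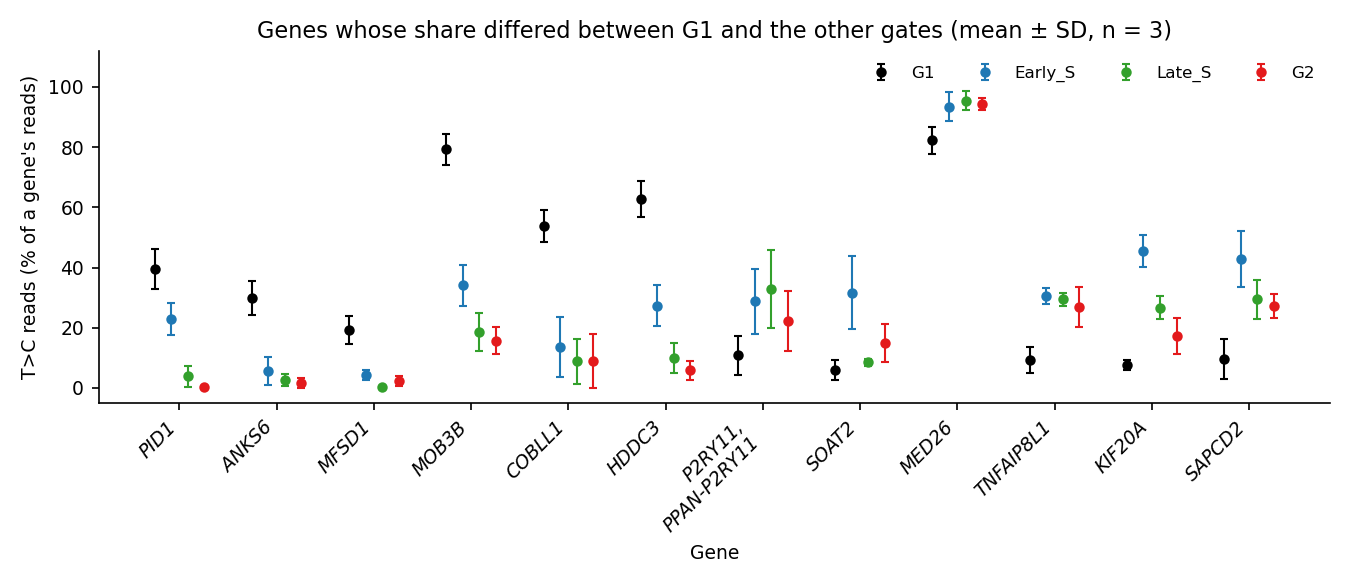
Labelled share (mean ± SD, n = 3) in each gate for 12 genes that differed between G1 and the other gates relative to the bulk. Their log2 differences were the largest each way among called genes with no overlap in the scaled ratio and at least 100 reads in each alkylated library. For the 6 genes at the left the G1 value lies above the other gates, as for MOB3B at 79.2%, and for the 6 at the right below them, as for KIF20A at 7.66%.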

How the data were processed

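SLAM-seq reads of 15 U2OS libraries were processed by the authors with slamdunk 0.2.4 over merged regions of Ensembl release 90 (hg38), per the file headers and the submitters' processing notes. The deposited values used are counts per region of reads, T>C reads and covered and converted T positions, and the deposited conversion fraction equals converted over covered T positions. The deposited CPM values, scaled to library totals by the authors, entered no value given here. They were only summed per library to find the percent of its reads that lay in regions. Of aligner settings and of how many conversions a T>C read had to carry, the sources used here say nothing.

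Counts were summed by gene name. The labelled share is T>C reads as a percent of all reads, ranked over names with at least 100 reads in each of the 3 G1 and 3 No_alkylation libraries and at most 5% background. Tests used edgeR 4.0.16 (quasi-likelihood, limma 3.58.1, R 4.3.3) on T>C reads and other reads as separate columns, with a library block and Benjamini-Hochberg adjustment over all genes tested at 0.05: within G1 and between gates with TMM scaling, against background with genes of at least 10 T>C reads. DESeq2 1.42.0 was an alternative. The fits were tested on simulated data. Single values per library were compared by exact permutation. Names followed a rule: the 15 highest and 15 lowest shares among names of 1 gene with under 20% multimapped reads, the 2 highest and 2 lowest of each of 34 lists, up to 6 genes each way between gates, and some genes by name; a few genes that the rule names are not reported here. Members and lists were chosen with earlier results of these data known. Of the ranked names, 8025 were current RefSeq symbols, 294 older symbols and 237 unmatched, 209 joined several genes and 410 had 20% or more multimapped reads. G1 libraries held 17290130 to 18104015 reads.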

Additional observations from a re-analysis of the deposited data

Results flagged for a closer look

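Differences between G1 and the mean of the other gates, relative to the bulk of genes, drew attention because the difference itself was tested (edgeR quasi-likelihood): 387 genes were higher and 585 lower in G1. The log2 differences of the named genes were 3.35 for PID1, 2.90 for ANKS6, 2.89 for MFSD1, 2.64 for MOB3B, 2.56 for COBLL1 and 2.52 for HDDC3. On the lower side they were -3.52 for SAPCD2, -3.43 for KIF20A, -3.29 for TNFAIP8L1, -3.09 for MED26, -2.93 for SOAT2 and -2.90 for P2RY11,PPAN-P2RY11. KIF20A is a mitotic gene, and the summed G2 and mitosis markers were 636 to 656 CPM in G1 and 856 to 1994 CPM in the other gates; their part in the result was not tested.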

How the results depend on the processing

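Settings that keep all libraries left most summary values within 1.5 times. Exceptions were the 2-fold test within G1, with 1998 genes higher and 1649 lower, the gates compared by all reads, with 6369 higher and 25 lower, and a read minimum of 500, with 4612 genes ranked and 141 fast and 231 slow genes kept. At that minimum the median share was 23.44% in place of 26.51%. Ranked within their strand, a setting chosen after seeing the data like the all-reads scaling and the separate strand fits, 230 fast genes were kept. Leaving out 1 library at a time gave 215 to 522 genes higher between gates, the lowest without G1 library 2, and a conversion rate difference of 0.8297 to 0.9814. Log2 ratios within G1 turned sign with the strands fitted apart for ANKS6 (-0.403), BATF3 (-0.3564), CTSC (-0.3358), NARS (-0.2725), PSMD10 (-0.09526) and UQCRFS1 (-0.1782). With 1 library left out they ran from -0.1278 to 0.2133 for AMOTL1, -0.2211 to 0.3061 for ANKS6, -0.01812 to 0.2993 for BATF3, -0.05892 to 0.3353 for CTSC, -0.972 to 0.2158 for FOS and -0.03263 to 0.8209 for PSMD10. Against background, COL3A1 was at -0.5528 with TMM scaling and at -0.2743 to 0.6035 with 1 library left out. The cause was not tested. Lists with a median above the 50th percentile numbered 21, and 22 by conversion rate.

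Replicate numbers were not used as pairs in the main fits. The deviations of same-numbered G1 and Early_S libraries correlated at 0.0336, 0.118 and 0.0559. For libraries 1 and 3, differently numbered pairs were as close, at 0.0399 and 0.0422. G1 library 2, by comparison, had -0.0606 and -0.0768 with Early_S libraries 1 and 3. With G2 it had 0.0736 for library 2, and -0.0359 and -0.0448 for libraries 1 and 3. Library 2 also had the lowest + strand median share of its group in G1 (18.9%), Early_S (14.8%), G2 (7.14%) and No_alkylation (0.328%). In Late_S its + strand median (8.76%) was the highest. These values do not settle whether equal numbers share an origin. With the replicate block 438 genes were higher and 635 lower between gates, and 11237 were above background. Motifs near transcript ends were not run, as no genome was used here. Depth limits the slowest genes, of which 6 had too few T>C reads to be tested against background.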
